A study of Mus musculus with 17 samples.

Results

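The 35 genes described here code for the enzymes of glycolysis and gluconeogenesis, together with the regulator Gckr, a kinase of pyruvate dehydrogenase and the liver enzymes of glycogen synthesis and breakdown. They were chosen by name. All 35 were found in both kinds of table, among 33840 gene symbols in the intestinal files and 24594 gene identifiers in the files labelled liver. RNA from mice was sequenced in bulk in 17 libraries that fall into 7 groups. The intestinal libraries were 2 of intestinal epithelial cells (IEC) after a sham operation, 2 of IEC after hepatectomy (surgical removal of liver tissue), 2 of crypts after sham and 2 of crypts after hepatectomy. Crypts are the pits of the intestinal lining that hold its stem cells. These 8 libraries came from the small intestine of mice of wild-type genotype. The remaining 9 libraries carry the source liver, the wild-type genotype and the treatment DSS (dextran sulfate sodium, a chemical given to mice to cause colitis), with 3 libraries each at day 0, day 10 and day 20. The day 0 libraries carry the DSS label too. The sources used here give no strain, age, interval after surgery or number of mice behind a library. A p-value therefore measures the spread among libraries within groups and no more, and that spread may be technical. In the main fits it was estimated over all intestinal or all liver-labelled groups together, not from the groups compared alone.

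Glycolysis breaks glucose down to pyruvate, and gluconeogenesis runs back from lactate, amino acids and glycerol to glucose. Most steps are reversible and use the same enzymes in both directions. At 3 places the directions use different enzymes: hexokinase against glucose-6-phosphatase, phosphofructokinase against fructose-1,6-bisphosphatase, and pyruvate kinase against pyruvate carboxylase with phosphoenolpyruvate carboxykinase (PEPCK). Liver and kidney are the main sites of glucose release, and the small intestine also carries all the gluconeogenic enzymes. The isozymes differ by tissue: hepatocytes are known for Pklr, Fbp1 and G6pc, and proliferating cells for Hk2, Pkm and Ldha. Transcript levels do not measure flux.

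Libraries held 26609786 to 43580050 counts in the intestine and 12742629 to 42669857 in the liver-labelled set, where the lowest was replicate 3 of day 10. Levels below are TMM-normalised CPM, that is counts scaled to a common library size, and levels of different genes are compared only as CPM per kilobase of exon. Markers of the labelled tissue were read first. The summed level of 15 hepatocyte markers was 131284 to 135938 CPM at day 20 but 1098 to 2647 CPM at day 0 and 2242 to 3821 CPM at day 10, against 824 to 1160 CPM in the intestinal libraries. Most of the intestinal sum was Cps1, at 508 to 902 CPM there. Alb was at most 0.242 CPM in the intestinal libraries, but 278, 384 and 360 CPM at day 0 and 377, 548 and 1165 CPM at day 10. The summed level of 10 intestinal stem cell markers was 7789 to 8662 CPM at day 0, 4006 to 5958 CPM at day 10 and 119 to 142 CPM at day 20. The 10 Paneth cell markers, of a secretory cell of the small intestine, summed to between 7215 and 98052 CPM at day 0 and day 10 and to no more than 579 CPM at day 20. By these lists the day 0 and day 10 libraries went against their liver label, though Alb stood above the intestinal libraries. Each contrast with day 20 therefore sets libraries of different content side by side. In bulk RNA, fewer cells of a type and less RNA per cell cannot be told apart.

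Pck1 and Pck2 moved in opposite directions after hepatectomy in IEC, and Fbp1 and Fbp2 did so between day 0 and day 20, so the sequences just upstream of their starts are shown for comparison (RefSeq, GRCm38.p6, with bases inside the annotated gene left out). Pck1, the cytosolic PEPCK, lies on chromosome 2 from 173153048 to 173159273, and the stretch printed is chr2:173152923-173153047 on the plus strand. Pck2, the mitochondrial PEPCK, lies on chromosome 14 from 55540266 to 55551242, and its stretch is chr14:55540116-55540265 on the plus strand. Fbp1 (chromosome 13, 62864753 to 62888282) and Fbp2 (chromosome 13, 62836877 to 62858422) are neighbours on the minus strand, with stretches chr13:62888283-62888432 and chr13:62858423-62858550. Capitals mark TTACGTCA, a match to the cyclic AMP response element TNACGTCA, in Pck1 and CACGTG, the E-box hexamer, in Fbp2.

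Pck1 promoter: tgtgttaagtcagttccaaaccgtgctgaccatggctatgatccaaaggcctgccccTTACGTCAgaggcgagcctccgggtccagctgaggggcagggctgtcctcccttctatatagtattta
Pck2 promoter: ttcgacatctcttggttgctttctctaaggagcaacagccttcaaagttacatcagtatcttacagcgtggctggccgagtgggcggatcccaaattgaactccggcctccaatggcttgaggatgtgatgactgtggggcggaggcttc
Fbp1 promoter: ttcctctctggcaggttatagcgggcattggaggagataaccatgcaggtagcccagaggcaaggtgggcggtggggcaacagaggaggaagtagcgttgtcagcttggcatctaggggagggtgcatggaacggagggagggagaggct
Fbp2 promoter: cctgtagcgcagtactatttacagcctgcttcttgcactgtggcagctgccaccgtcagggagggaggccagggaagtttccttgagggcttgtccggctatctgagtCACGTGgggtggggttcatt

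RefSeq start windows, each from 250 bases before to 50 after a start, were found for 34 of the 35 genes, 54 windows in all. A set of 5 short motifs was searched on both strands in these and in all 32851 windows of the table. TNACGTCA was in 2.93% of all windows and among the enzyme genes in those of Pck1 and Ldha. TATAAA, the TATA box, was in 13.6% of all windows and in those of 4 of the genes (Eno2, G6pc, Pfkfb1 and Pklr). A forkhead core, TGTTT with any base and then C, was in 20.5% of all windows and in 8 of the 54, and the G6pc window held this core as well as the TATA box. ACGTG, the core of the hypoxia response element, was in 19.6% of all windows and in 21 of the 54, which belong to 17 genes. CACGTG contains ACGTG, and it was in 7.15% of all windows and in 7 of the 54. These are letter matches only.

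Hepatectomy against sham was the first question the design poses, asked in IEC and in crypts. In both preparations the gluconeogenic genes Pck1, Fbp1, Fbp2 and Pcx, both pyruvate kinase genes and Eno1 were higher after hepatectomy, while the hexokinase genes Hk1 and Hk2 and the mitochondrial Pck2 were lower. Of the 35 genes, 31 were tested in the intestine, since Hk3, Gckr, Ldhb and Gys2 held at most 9 counts in any of the 8 libraries and did not pass the filter on low counts. In IEC 24 of the 31 passed the threshold (adjusted p under 0.05 in edgeR's quasi-likelihood test with Benjamini-Hochberg adjustment over all genes), 20 higher and 4 lower, against 37.8% of all 18207 genes tested (19.5% higher and 18.3% lower). In crypts 18 of the 31 passed, 13 higher and 5 lower, against 37.5% of all genes (19.2% higher and 18.3% lower). The effects of hepatectomy differed between crypts and IEC for 8 of the 31, 1 in the positive and 7 in the negative direction (crypts minus IEC), against 19.2% of all genes (9.15% and 10.1%). The median log2 fold change of the tested members was 0.27 in IEC and 0.15 in crypts, beside 0.0235 and 0.0074 over all genes. When low genes were filtered more strictly, the share of all genes called rose to 52.8% in IEC and 49.9% in crypts, beside 22 and 18 of 29 members.

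**Figure D1:**
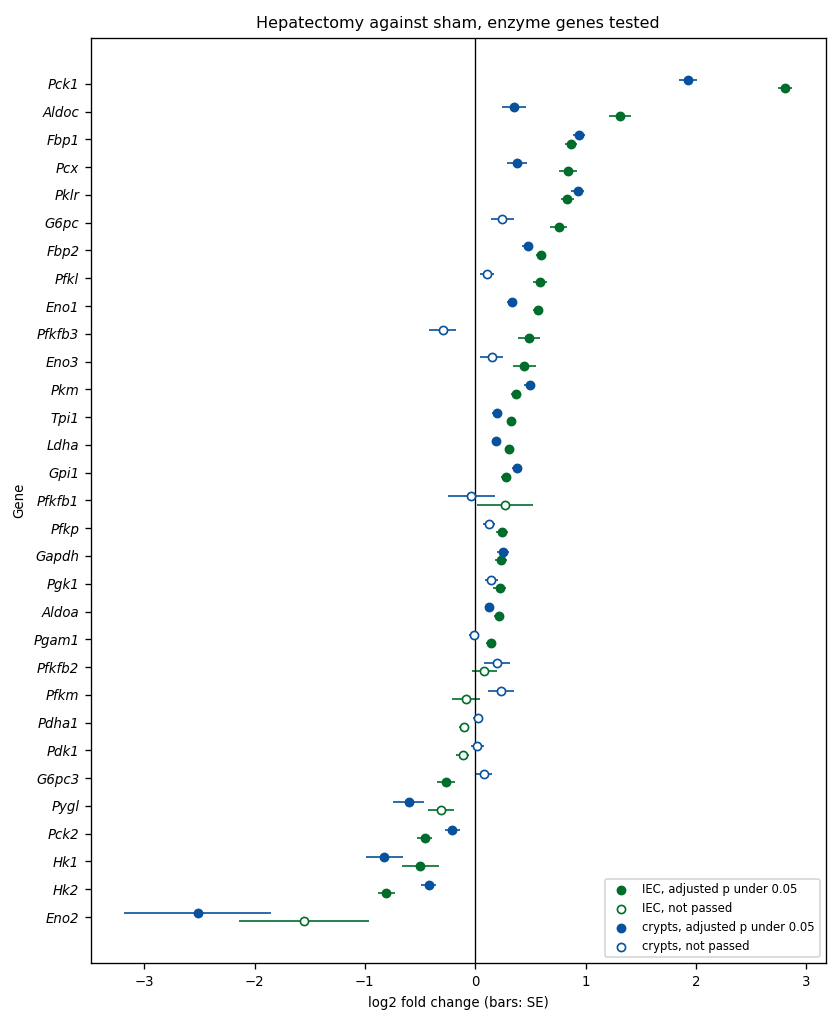
Log2 fold change (x axis, bars are SE) of hepatectomy against sham for the 31 enzyme genes tested (y axis), in IEC (green) and crypts (blue); filled points passed an adjusted p of 0.05. Pck1 stands farthest to the right in both preparations, and Hk1 and Hk2 lie left of zero in both.

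Among the 7 gluconeogenic genes, 5 rose and 2 fell in IEC, and 4 rose and 1 fell in crypts. Pck1, whose product makes phosphoenolpyruvate in the cytosol and is often taken as the rate-setting step of gluconeogenesis, stood at 27.7 and 25.9 CPM in sham IEC and at 184 and 191 CPM in IEC after hepatectomy. In crypts its level was 4.44 and 4.37 CPM after sham and 17.7 and 16 CPM after hepatectomy. The hepatectomy libraries lay above the sham libraries in both preparations with no overlap, and the crypt libraries after hepatectomy stayed below the sham IEC libraries. The log2 fold change was 2.81 ± 0.065 (SE), adjusted p = 5.7e-11 in IEC and 1.93 ± 0.083 (SE), adjusted p = 7.0e-09 in crypts. The difference between these effects, crypts minus IEC, was -0.88 ± 0.11 (adjusted p = 1.7e-04), so the rise was larger in IEC. Pck2, the mitochondrial form, moved the other way: it stood at 39.9 and 41.5 CPM and 28.9 and 30.4 CPM in IEC after sham and after hepatectomy, and at 52.2 and 48.4 CPM and 42 and 45.1 CPM in crypts. It fell by 0.46 on the log2 scale in IEC (SE 0.069, adjusted p = 2.2e-04) and by 0.21 in crypts (SE 0.064, adjusted p = 0.025). The crypt call was lost under DESeq2 (adjusted p = 0.11) and without replicate 1 of either crypt group.

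Fbp1 and Fbp2 code for the fructose-1,6-bisphosphatases, of which Fbp1 is the liver form and Fbp2 the muscle form. Fbp1 measured 102 and 98.4 CPM in sham IEC and 184 and 182 CPM after hepatectomy, and in crypts 19.6 and 18.5 CPM and 35.5 and 37.5 CPM. Both preparations rose without overlap, by 0.87 ± 0.052 (adjusted p = 7.9e-08) in IEC and 0.94 ± 0.058 (adjusted p = 1.8e-07) in crypts on the log2 scale. Fbp2 measured 345 and 339 CPM in sham IEC, 535 and 498 CPM after hepatectomy, and 198 and 194 CPM and 268 and 276 CPM in the matching crypts. It rose by 0.60 ± 0.047 (adjusted p = 8.3e-07) in IEC and 0.48 ± 0.047 (adjusted p = 1.0e-05) in crypts. Neither gene passed the test of a difference between the preparations (adjusted p = 0.57 for Fbp1 and 0.24 for Fbp2).

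G6pc codes for the catalytic subunit that releases free glucose, and G6pc3 for a form found in most tissues. In IEC G6pc was 36.1 and 40.9 CPM after sham and 65.7 and 64.5 CPM after hepatectomy, a rise of 0.76 ± 0.077 (adjusted p = 8.4e-06). In crypts it was 5.55 and 6.44 CPM and 7.02 and 7.27 CPM, a log2 difference of 0.25 ± 0.10 that did not pass (adjusted p = 0.082). The crypt libraries did not overlap either, but all 4 lay far below every IEC library. The effects differed between preparations by -0.51 ± 0.13 (adjusted p = 0.016), a call lost when replicate 1 of either IEC group, crypt replicate 1 after hepatectomy or sham crypt replicate 2 was left out. G6pc3 fell by 0.27 in IEC (SE 0.085, adjusted p = 0.027), from 25.6 and 26.9 CPM to 20.9 and 22.7 CPM, and missed the threshold with DESeq2 (adjusted p = 0.051) and with a stricter filter (0.068), and without IEC replicate 1 after hepatectomy or sham IEC replicate 2. In crypts G6pc3 was 35.3 and 30.6 CPM after sham and 34.4 and 35 CPM after hepatectomy, with overlapping libraries.

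Pcx, pyruvate carboxylase, feeds pyruvate into gluconeogenesis through oxaloacetate. Its level was 32.7 and 32 CPM in sham IEC and 58.7 and 57.3 CPM after hepatectomy, and 18.2 and 17 CPM and 20.4 and 25 CPM in crypts. The rise was 0.84 ± 0.085 (adjusted p = 7.5e-06) in IEC and 0.38 ± 0.089 (adjusted p = 0.0056) in crypts. The groups did not overlap in either preparation, but the spread between the crypt libraries after hepatectomy was wide beside the difference: the crypt call was lost without replicate 2 of either crypt group. The effects differed by -0.46 ± 0.12 (adjusted p = 0.02), which did not pass in 5 of 8 fits that left out a library (replicate 1 of any of the 4 groups, or sham IEC replicate 2). Reads of Lrfn4, which overlaps Pcx on the opposite strand, may be included, since no source used here states how strand was handled in counting.

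At the entry of hexose into glycolysis both tested hexokinases of the 35 genes fell, while Hkdc1, a hexokinase-like gene outside the 35 that was the more abundant, rose. Hk2, the insulin-responsive hexokinase that is high in proliferating cells, was 22.7 and 23.2 CPM in sham IEC and 12.7 and 13.5 CPM after hepatectomy, and 35.4 and 35.6 CPM and 27.2 and 25.8 CPM in crypts. Every hepatectomy library lay below the sham libraries of its preparation. Hk2 fell by 0.80 in IEC (SE 0.075, adjusted p = 3.9e-06) and by 0.42 in crypts (SE 0.066, adjusted p = 3.7e-04). The fall was smaller in crypts by 0.38 ± 0.10 (adjusted p = 0.019), though with DESeq2 this difference did not pass (adjusted p = 0.064), nor without sham IEC replicate 2, sham crypt replicate 2 or IEC replicate 1 after hepatectomy. Hk1, the hexokinase of most tissues, was 7.46 and 8.75 CPM in sham IEC, 4.99 and 6.5 CPM after hepatectomy, and 6.58 and 5.54 CPM and 3.0 and 3.77 CPM in crypts. It fell by 0.82 in crypts (SE 0.17, adjusted p = 0.0026) and by 0.50 in IEC (SE 0.17, adjusted p = 0.033), where it was not called by DESeq2 (adjusted p = 0.087) or without sham IEC replicate 2 or IEC replicate 1 after hepatectomy. Hkdc1 was 285 and 272 CPM in sham IEC, 379 and 337 CPM in IEC after hepatectomy, 216 and 198 CPM in sham crypts and 264 and 287 CPM in crypts after hepatectomy. It rose by 0.36 ± 0.066 (adjusted p = 8.6e-04) in IEC and 0.41 ± 0.065 (adjusted p = 4.3e-04) in crypts with no overlap, and stood far above Hk2 per kilobase, at 79.2 CPM per kilobase against 4.08 in the sham IEC mean. Proliferation markers were also lower after hepatectomy, 12 of 12 in IEC and 11 of 12 in crypts. Their summed level was 828 to 830.4 CPM in sham IEC and 474 to 478 CPM in IEC after hepatectomy. In crypts it was 1219 to 1228 CPM after sham and 826 to 840.1 CPM after hepatectomy. Pkm and Ldha, also known from proliferating cells, were higher after hepatectomy in both preparations. The part of the proliferation markers in these differences was not tested.

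Of the 6 genes around the phosphofructokinase step, 3 rose in IEC and none passed in crypts. Pfkl, a phosphofructokinase subunit abundant in liver, was 64.7 and 64.4 CPM in sham IEC and 102 and 92.4 CPM after hepatectomy, a rise of 0.59 ± 0.065 (adjusted p = 1.5e-05). In crypts it was 67.4 and 62.9 CPM after sham and 67.5 and 72.4 CPM after hepatectomy, where the higher sham library lay just under the lower hepatectomy library. Pfkfb3 codes for an enzyme that makes fructose-2,6-bisphosphate, the main activator of phosphofructokinase. It was 32.6 and 29.9 CPM in sham IEC and 45.6 and 42 CPM after hepatectomy (0.49 ± 0.096, adjusted p = 0.0016), and 7.32 and 7.96 CPM and 5.41 and 6.99 CPM in crypts (-0.29 ± 0.12, adjusted p = 0.077). The effects in crypts and IEC differed for both genes, by -0.49 ± 0.091 (adjusted p = 0.0029) for Pfkl and -0.78 ± 0.15 (adjusted p = 0.0042) for Pfkfb3. The third, Pfkp, rose in IEC by 0.24 ± 0.056 (adjusted p = 0.0043), from 247 and 243 CPM to 304 and 276 CPM. The Pfkp call was lost without IEC replicate 1 after hepatectomy. The crypt value of Pfkfb3 passed as a fall when the filter was dropped (adjusted p = 0.020).

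Of the 10 genes of the steps shared by both directions, 9 rose in IEC and Eno2 did not pass, with a log2 difference of -1.55 ± 0.59 (adjusted p = 0.057). In crypts 6 rose, 1 fell and 3 did not pass. Aldoc, an aldolase best known from brain, had the largest rise of these, from 9.03 and 8.9 CPM to 22.5 and 22 CPM in IEC (1.31 ± 0.10, adjusted p = 6.3e-07). In crypts it went from 5.97 and 5.03 CPM to 6.79 and 7.13 CPM (0.35 ± 0.11, adjusted p = 0.024), a call that DESeq2 (adjusted p = 0.15), the unfiltered fit (0.064) and a fit of the crypt libraries alone (0.056) did not make, nor did fits without replicate 2 of either crypt group. The effects differed by -0.96 ± 0.15 (adjusted p = 8.6e-04). Eno1, the main enolase, was 447 and 445 CPM in sham IEC, 683 and 638 CPM in IEC after hepatectomy, 293 and 280.0 CPM in sham crypts and 357 and 366 CPM in crypts after hepatectomy. It rose by 0.57 ± 0.046 (adjusted p = 1.1e-06) in IEC and 0.34 ± 0.046 (adjusted p = 1.4e-04) in crypts, with no overlap. The difference of -0.23 ± 0.065 (adjusted p = 0.028) did not pass with DESeq2 (adjusted p = 0.055), with RLE scaling (0.053) or in 5 of 8 fits that left out a library (replicate 1 of any group, or sham IEC replicate 2). Gpi1, glucose-6-phosphate isomerase, was 335 and 325 CPM in sham IEC, 396 and 404 CPM after hepatectomy, and 211 and 208 CPM and 269.7 and 274 CPM in crypts, rises of 0.28 ± 0.042 (adjusted p = 2.0e-04) and 0.38 ± 0.042 (adjusted p = 2.6e-05).

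Gapdh, which is often used as a reference gene, also rose, by 0.24 ± 0.056 (adjusted p = 0.0055) in IEC and 0.25 ± 0.056 (adjusted p = 0.0038) in crypts, from 149.6 and 146 CPM to 164 and 184 CPM and from 112 and 114 CPM to 134 and 136 CPM. The TMM factors, which multiply library size, were 1.279 and 1.205 in sham crypts and 0.9996 and 0.9862 in crypts after hepatectomy. In IEC they were 0.973 and 0.9676 after sham and 0.8439 and 0.8278 after hepatectomy. Rises as small as that of Gapdh depend on this scaling, and counts scaled to library size alone were not tested. Tpi1, triosephosphate isomerase, rose in both preparations (0.32 in IEC and 0.19 in crypts). Aldoa also passed in both (0.21 and 0.13), but its crypt call was lost in 6 of 8 fits that leave out a library. Pgk1 and Pgam1 passed in IEC alone, at 0.22 and 0.14, and the difference between the preparations did not pass for either (adjusted p = 0.56 and 0.091). The IEC calls of Pgk1, Pgam1 and Gapdh were each lost without replicate 2 of either IEC group, those of Pgk1 and Pgam1 also without sham IEC replicate 1, and that of Pgam1 also without sham crypt replicate 1 and with DESeq2 (adjusted p = 0.057). Eno3, the muscle enolase, rose by 0.45 in IEC but not with DESeq2 (adjusted p = 0.053) or without replicate 1 of either IEC group. Eno2, the neuronal enolase, held only 27 and 32 counts in sham crypts and 0 and 10 counts in crypts after hepatectomy, and fell by 2.51 there (SE 0.67, adjusted p = 0.011). The size of that fall is uncertain: the log2 fold change was -1.66 without crypt replicate 1 after hepatectomy and has no usable size without replicate 2, since the remaining library is at 0. Eno1, Gapdh, Pgk1, Pgam1, Gpi1, Aldoa and Ldha have near-identical copies that can take their reads, so their levels are uncertain. Eno1b, for one, was listed at 230 to 545 CPM in the intestine. With the copies summed, 24 and 18 members were called, as before.

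Around pyruvate, 3 of 5 tested genes rose in each preparation. Pklr, the pyruvate kinase of liver and red cells, was 106 and 105 CPM in sham IEC, 191 and 185 CPM after hepatectomy, and 53.9 and 54.2 CPM and 97.1 and 109 CPM in crypts. It rose by 0.84 ± 0.057 (adjusted p = 2.5e-07) and 0.93 ± 0.058 (adjusted p = 1.9e-07), and in crypts its level after hepatectomy reached that of sham IEC. Pkm, the pyruvate kinase of most other tissues, was 878 and 844 CPM in sham IEC, 1147 and 1082 CPM after hepatectomy, and 519 and 489.5 CPM and 698 and 721 CPM in crypts (0.37 ± 0.046, adjusted p = 4.6e-05 and 0.49 ± 0.047, adjusted p = 7.0e-06). The kinases of opposite tissue preference therefore rose together. Ldha, the lactate dehydrogenase subunit that dominates in these libraries, rose by 0.31 ± 0.036 (adjusted p = 2.7e-05) in IEC and 0.19 ± 0.036 (adjusted p = 0.0016) in crypts. Pdha1, a subunit of pyruvate dehydrogenase, and Pdk1, a kinase that inhibits it, did not pass in either preparation. For glycogen, Pygl, the liver glycogen phosphorylase, fell in crypts by 0.60 (SE 0.14, adjusted p = 0.0045), from 4.7 and 4.31 CPM to 2.79 and 3.1 CPM, and in IEC read 9.37 and 10.4 CPM after sham and 7.52 and 8.39 CPM after hepatectomy (adjusted p = 0.061).

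Markers of several cell types moved with these changes. All 15 markers of absorptive enterocytes passed as higher in IEC after hepatectomy, and in crypts 14 were higher and 1 lower, and their summed level was 31850 to 32313 CPM in sham IEC, 79569 to 83078 CPM in IEC after hepatectomy, 5678 to 5747 CPM in sham crypts and 13481 to 13546 CPM in crypts after hepatectomy. None of the 15 was at 0 in any group. Paneth markers were lower in 9 of 10 in IEC (1 higher) and 10 of 10 in crypts, and lymphocyte markers in 7 of 10 and 10 of 10. Of 8 goblet markers, 3 were higher and 3 lower in IEC and all 8 lower in crypts. Of 10 stem cell markers, 7 were lower in IEC and 5 in crypts, with 0 higher in either. The summed erythroid markers, listed because Pklr is also a red cell gene, were 315 to 325 CPM in sham IEC and 402 to 422 CPM in IEC after hepatectomy. In crypts they were 39.3 to 39.6 CPM after sham and 14.7 to 17.8 CPM after hepatectomy. These markers were thus higher in IEC and lower in crypts after hepatectomy, while Pklr was higher in both. The part of these lists in the enzyme differences was not tested. The deposited files number the sham and the hepatectomy libraries in separate series, so the operation and whatever those series stand for cannot be told apart.

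Crypts were next compared with IEC, first after sham and then after hepatectomy. These comparisons share their libraries with those above, so their values are not independent of them. In sham libraries 23 of 31 enzyme genes passed, 5 higher in crypts and 18 lower, against 38.6% of all genes (19.3% higher and 19.3% lower). After hepatectomy 24 passed, 4 higher and 20 lower, against 51.9% of all genes (26.3% higher and 25.6% lower). The median log2 difference of the members was -0.39 in sham and -0.47 after hepatectomy, beside 0.017 and 0.0113 over all genes.

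The genes specific to gluconeogenesis split by isozyme. Pck1, G6pc, Fbp1, Fbp2 and Pcx were lower in crypts than in IEC, and Pck2 and G6pc3 were higher, under both operations. In sham libraries G6pc differed by -2.67 ± 0.092 (adjusted p = 2.7e-10), Pck1 by -2.60 ± 0.082 (adjusted p = 1.2e-10) and Fbp1 by -2.40 ± 0.058 (adjusted p = 1.4e-11). After hepatectomy the differences were -3.19 ± 0.089, -3.48 ± 0.067 and -2.32 ± 0.055. For G6pc, 5.55 and 6.44 CPM in sham crypts stood against 36.1 and 40.9 CPM in sham IEC. The opposite sign held for Pck2 (0.30 ± 0.066, adjusted p = 0.003 in sham, 0.55 ± 0.067, adjusted p = 2.0e-05 after hepatectomy) and G6pc3 (0.33 ± 0.081, adjusted p = 0.0067 and 0.67 ± 0.081, adjusted p = 2.0e-05). The sham call of G6pc3 was lost without replicate 1 of either sham group.

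Hk2 was the glycolytic gene that stood highest in crypts relative to IEC. Sham crypts read 35.4 and 35.6 CPM against 22.7 and 23.2 CPM in sham IEC (0.63 ± 0.068, adjusted p = 1.5e-05), and after hepatectomy the difference was 1.01 ± 0.073 (adjusted p = 1.8e-07). Pfkfb3 was lower in crypts by far, at 7.32 and 7.96 CPM against 32.6 and 29.9 CPM after sham (-2.03 ± 0.11, adjusted p = 1.8e-08) and by -2.81 ± 0.11 (adjusted p = 5.2e-10) after hepatectomy. Pfkfb3 overlaps an antisense gene, Gm10851, whose reads may be counted with it. Aldoc, Gpi1, Eno1, Tpi1 and Gapdh of the shared steps were lower in crypts under both operations, with log2 differences in sham of -0.71, -0.66, -0.64, -0.25 and -0.39. Pklr (-0.96 ± 0.059, adjusted p = 6.4e-08) and Pkm (-0.77 ± 0.047, adjusted p = 6.0e-08) were both lower in sham crypts, as were Ldha (-0.25) and Pygl (-1.13). Aldoa (0.14) and Pgam1 (0.16) were slightly higher in sham crypts, and both calls were lost when any of 3 sham libraries was left out. The 12 proliferation markers were all higher in crypts and the 15 enterocyte markers all lower, under both operations. The 5 tested erythroid markers were also all lower in crypts under both operations, as was Pklr. Of the 10 Paneth markers, 8 were lower in sham crypts than in sham IEC. The 10 stem cell markers were mixed. In sham crypts 4 were higher and 4 lower than in sham IEC, and after hepatectomy 6 were higher and 2 lower. The crypt label was thus only partly borne out by these lists. Their part in the enzyme differences was not tested.

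**Figure D2:**
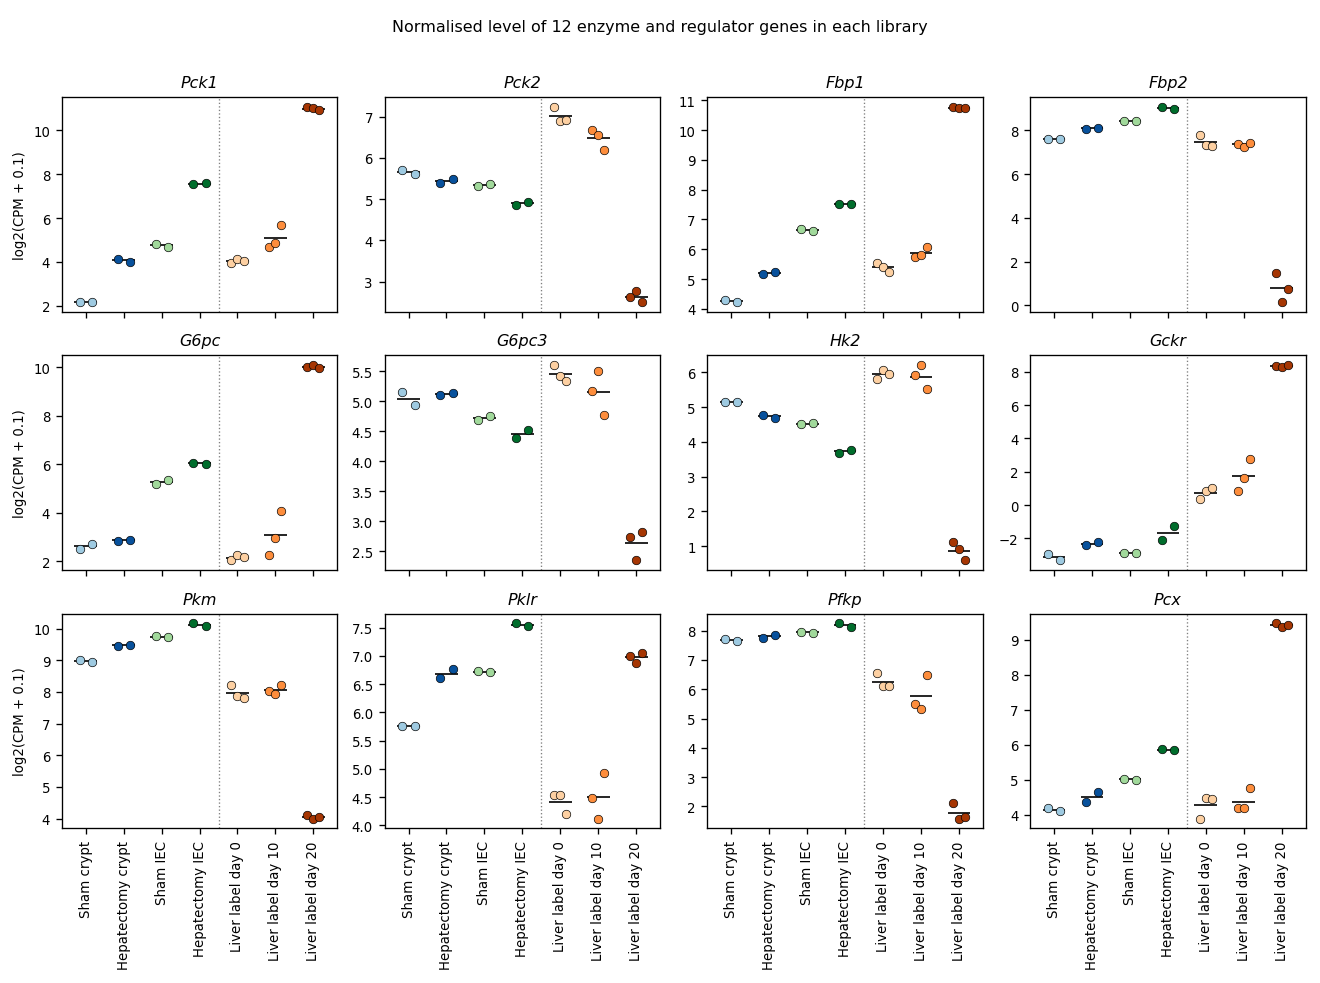
Level of 12 genes in each library as log2(CPM + 0.1) (y axis) by group (x axis), with points for libraries and a line for the group mean; the dotted line divides intestinal from liver-labelled libraries, which were normalised separately. Pck1, Fbp1 and G6pc rise from sham crypts to IEC after hepatectomy and are highest at day 20, where Pck2, Fbp2, G6pc3, Hk2, Pkm and Pfkp are lowest.

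The files labelled liver were compared between days. In these 34 of the 35 genes were tested, and Eno2 was below the filter, with 0 to 23 counts per library. Day 20 differed from day 0 in 28 of 34, 17 higher and 11 lower, against 71.4% of all 16694 genes (33.3% higher and 38.1% lower). Day 20 differed from day 10 in 27, 18 higher and 9 lower, against 71.1% of all genes (30.8% higher and 40.3% lower). Day 10 differed from day 0 in 15, 8 higher and 7 lower, against 43.6% of all genes (24.7% higher and 18.8% lower), a share near that of the members. The members' median was 0.50, 0.62 and -0.09 on the log2 scale in that order, beside -0.16, -0.21 and 0.10 over all genes.

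At day 20 the gluconeogenic genes known from liver were far above the other days. G6pc was 3.96, 4.59 and 4.34 CPM at day 0, 4.6, 7.62 and 16.5 CPM at day 10 and 1033, 1084 and 1016 CPM at day 20, with a log2 fold change from day 0 to day 20 of 7.92 ± 0.44 (SE), adjusted p = 2.6e-09. Pck1 was 15.2, 17.6 and 16.3 CPM, then 25.9, 29 and 50.6 CPM, then 2122, 2046 and 1923 CPM (6.95 ± 0.31, adjusted p = 4.3e-10). Fbp1 was 46.7, 42.3 and 38 CPM, then 53.7, 56.2 and 67.6 CPM, then 1748, 1697 and 1730.0 CPM (5.35 ± 0.21, adjusted p = 1.8e-10). All day 20 libraries stood far above every library of the other days for these 3 genes, and the same was true of Pcx, at 14.7, 22 and 21.6 CPM at day 0 and 710.3, 668 and 684 CPM at day 20 (5.14 ± 0.24, adjusted p = 6.0e-10). Their counterparts fell. Fbp2 went from 221, 161 and 158 CPM at day 0 and 168, 153 and 171 CPM at day 10 to 2.72, 1.01 and 1.58 CPM at day 20 (-6.66 ± 0.31, adjusted p = 6.4e-10). Pck2 went from 151, 119.8 and 121 CPM to 6.11, 6.73 and 5.55 CPM (-4.41 ± 0.19, adjusted p = 3.3e-10), and G6pc3 from 48.3, 42.8 and 40.1 CPM to 6.59, 4.99 and 6.95 CPM (-2.82 ± 0.21, adjusted p = 5.2e-08).

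The glycolytic isozymes differed between these libraries of unlike content as well. Hk2 was 56.1, 67 and 62 CPM at day 0, 60.5, 73.5 and 45.5 CPM at day 10 and 2.06, 1.78 and 1.4 CPM at day 20 (-5.14 ± 0.23, adjusted p = 4.5e-10 from day 0 to day 20). Pkm was 297, 235 and 224 CPM at day 0 and 17.3, 15.9 and 16.4 CPM at day 20 (-3.94 ± 0.18, adjusted p = 4.8e-10), while Pklr was 23, 23 and 18.3 CPM and 128, 118 and 133 CPM (2.56 ± 0.20, adjusted p = 7.9e-08). The pyruvate kinases thus differed in opposite directions between these days, whose libraries differ in content, while both were higher after hepatectomy. Pfkp was 93.6, 69.3 and 68.6 CPM at day 0 and 4.23, 2.9 and 2.99 CPM at day 20 (-4.51 ± 0.32, adjusted p = 3.0e-08). Pfkl, the liver-type subunit, was 106, 83.8 and 77.7 CPM and 59.8, 54.1 and 63.9 CPM, a smaller fall with no overlap (-0.59 ± 0.17, adjusted p = 0.0065), and Pfkm rose by 0.76. Pfkfb1, the liver form of the fructose-2,6-bisphosphate enzyme, rose from 4.33, 3.09 and 3.42 CPM to 37.6, 38.9 and 36.6 CPM (3.38 ± 0.19, adjusted p = 2.5e-09).

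Liver regulators and glycogen enzymes were far higher at day 20 than at the other days. Gckr, which codes for a regulatory protein of hepatocytes, was 1.17, 1.68 and 1.93 CPM at day 0, 1.7, 3.02 and 6.7 CPM at day 10 and 324, 315 and 337 CPM at day 20 (7.67 ± 0.43, adjusted p = 3.2e-09). Gys2, the liver glycogen synthase, was 0.685, 1.15 and 1.03 CPM at day 0 and 174, 176 and 177 CPM at day 20 (7.51 ± 0.45, adjusted p = 5.7e-09). Pygl was 5.36, 5.03 and 4.68 CPM at day 0, 10.8, 9.17 and 17 CPM at day 10 and 672, 679 and 675 CPM at day 20 (7.07 ± 0.26, adjusted p = 1.3e-10). In the intestine Gys2 was at 0 counts in 6 of 8 libraries and Gckr held 0 to 9 counts. Hk3, a hexokinase of blood cells, also rose to day 20 (4.24), from 0.0979, 0.131 and 0.103 CPM at day 0 to 2.61, 1.74 and 2.16 CPM. It held only 4, 6 and 4 counts at day 0, near the floor, so the size of that rise is uncertain.

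**Figure D3:**
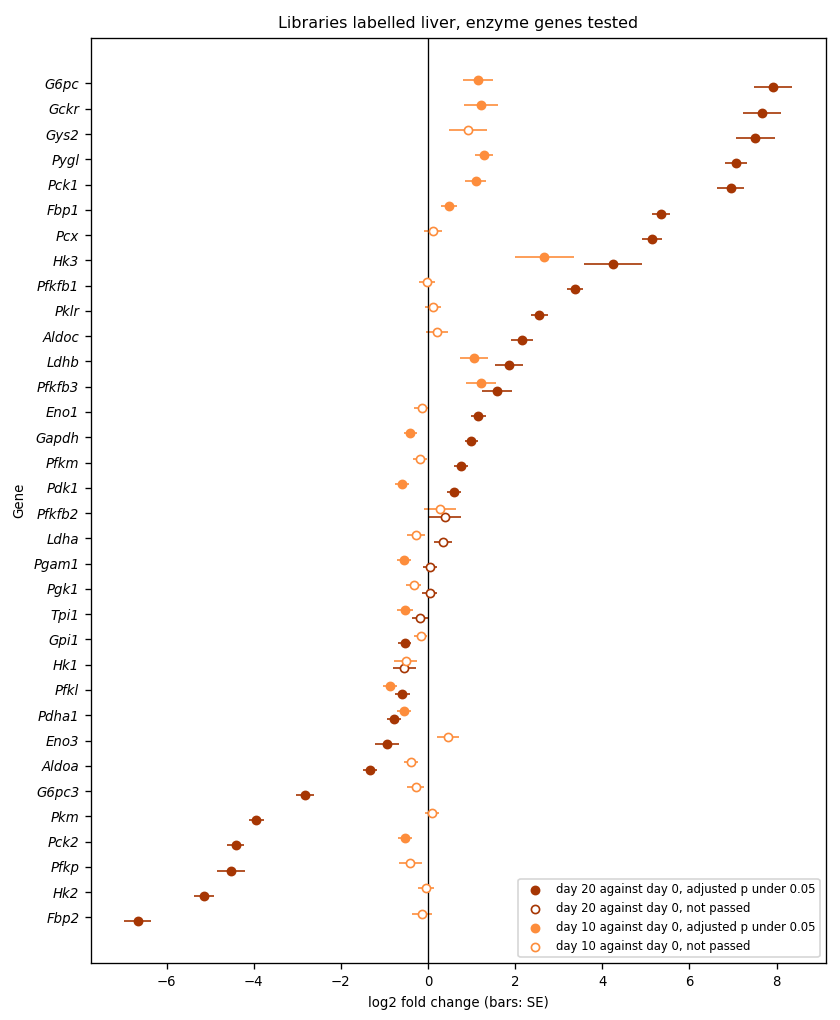
Log2 fold change (x axis, bars are SE) from day 0 to day 20 (dark) and from day 0 to day 10 (light) for the 34 enzyme genes tested (y axis) in libraries labelled liver; filled points passed an adjusted p of 0.05. Day 20 values run from -6.66 for Fbp2 to 7.92 for G6pc, and day 10 values stay nearer to 0.

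The shared steps moved less. Aldoa fell by 1.33 to day 20 (SE 0.16, adjusted p = 7.7e-06), Eno3 by 0.94 and Gpi1 by 0.54. Aldoc rose by 2.15, Eno1 by 1.16 and Gapdh by 0.99. Tpi1, Pgk1 and Pgam1 did not pass between day 20 and day 0, with log2 differences of -0.17, 0.04 and 0.05. Of the pyruvate genes, Ldha did not pass (adjusted p = 0.14), Pdha1 fell by 0.78, and Pdk1 and Ldhb rose by 0.60 and 1.86. All 15 hepatocyte markers were higher and all 12 proliferation and all 10 Paneth markers lower at day 20 than at either earlier day, and none of the hepatocyte markers was at 0 at any day. Their part in the enzyme differences was not tested.

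Between day 10 and day 0 the higher genes included members of gluconeogenesis, glycogen breakdown and hexose entry. Pck1 rose by 1.10 ± 0.24 (adjusted p = 0.0061) and Pygl by 1.29 ± 0.21 (adjusted p = 0.0018), and the day 10 libraries lay above all day 0 libraries for both. G6pc (1.14 ± 0.35, adjusted p = 0.021), Gckr (1.22 ± 0.38, adjusted p = 0.023), Pfkfb3 (1.21 ± 0.34, adjusted p = 0.016), Hk3 (2.67 ± 0.68, adjusted p = 0.01), Ldhb (1.06) and Fbp1 (0.48) passed too. In Pck1, G6pc, Gckr, Fbp1, Pygl and Hk3 replicate 3 of day 10, the library of lowest depth, was the highest of the 3, and for Hk3 it stood at 1.54 CPM beside 0.333 and 0.367 CPM. In a fit of these 2 days alone 3 members were higher and 8 lower, and G6pc (adjusted p = 0.075), Gckr (0.099), Pfkfb3 (0.073), Ldhb (0.075) and Fbp1 (0.060) did not pass. Without that library 2 were higher and 9 lower, and the adjusted p was 0.25 for G6pc, 0.35 for Gckr, 0.14 for Pfkfb3, 0.077 for Hk3, 0.052 for Ldhb and 0.15 for Fbp1, while Pck1 passed with a log2 fold change of 0.65. Fbp1 lost its call in 9 of 9 fits that left out a library of any day, and Ldhb in 4 of 9 (any day 0 library or replicate 1 of day 10). Pfkl fell most, by 0.87 (SE 0.17, adjusted p = 0.0035), at 51.9, 39.6 and 54.4 CPM against 106, 83.8 and 77.7 CPM, followed by Pdk1, Pgam1, Pdha1, Pck2, Tpi1 and Gapdh with log2 fold changes from -0.60 to -0.41. Of these, Gapdh lost its call in 5 of 9 fits that left out a library (replicate 2 or 3 of day 10, or any day 20 library), Tpi1 in 4 (replicate 2 of day 10, or any day 20 library) and Pgam1 and Pdha1 in 1 (replicate 2 of day 10). With the stricter filter 7 members passed, 6 higher and 1 lower, beside 38.3% of all genes. Marker lists moved with these days too: 11 of 15 hepatocyte and 10 of 15 enterocyte markers were higher at day 10 and of 12 proliferation markers 10 were lower and 1 higher. Replicate 3 of day 10 stood apart in them, with summed levels of 7215 CPM for the Paneth list beside 90929 and 98052 CPM, and 3871 CPM for the enterocyte list beside 1391 and 1382 CPM. For the hepatocyte list it was also the highest, at 3821 CPM beside 2242 and 2309 CPM. Their part was not tested.

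Isozyme use was next described within families as a share of the family's summed CPM per kilobase, with no test. Pck1 made up 13.2% ± 0.50 (SD) of PEPCK transcripts in sham crypts, 40.2% ± 2.9 in crypts after hepatectomy, 53.3% ± 1.9 in sham IEC and 91.7% ± 0.073 in IEC after hepatectomy. In the liver-labelled set it was 18.1% ± 2.8 at day 0, 39.9% ± 13 at day 10 and 99.8% ± 0.014 at day 20. The 4 intestinal groups did not overlap, and per kilobase the leading gene of the pair was Pck2 in crypts and Pck1 in IEC. In sham IEC this rests on the length correction, without which Pck2 led there. G6pc made up 10.9% ± 2.0 of its pair in sham crypts and 12% ± 0.14 in crypts after hepatectomy, which differ by less than their spread. It was 49.4% ± 1.3 in sham IEC, 66.5% ± 1.6 in IEC after hepatectomy and 99.1% ± 0.17 at day 20. Fbp1 stayed the minor form in every intestinal group, from 8.19% ± 0.17 in sham crypts to 24.5% ± 0.81 in IEC after hepatectomy, and at 17.9% ± 1.6 at day 0, but made up 99.9% ± 0.054 at day 20.

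**Figure D4:**
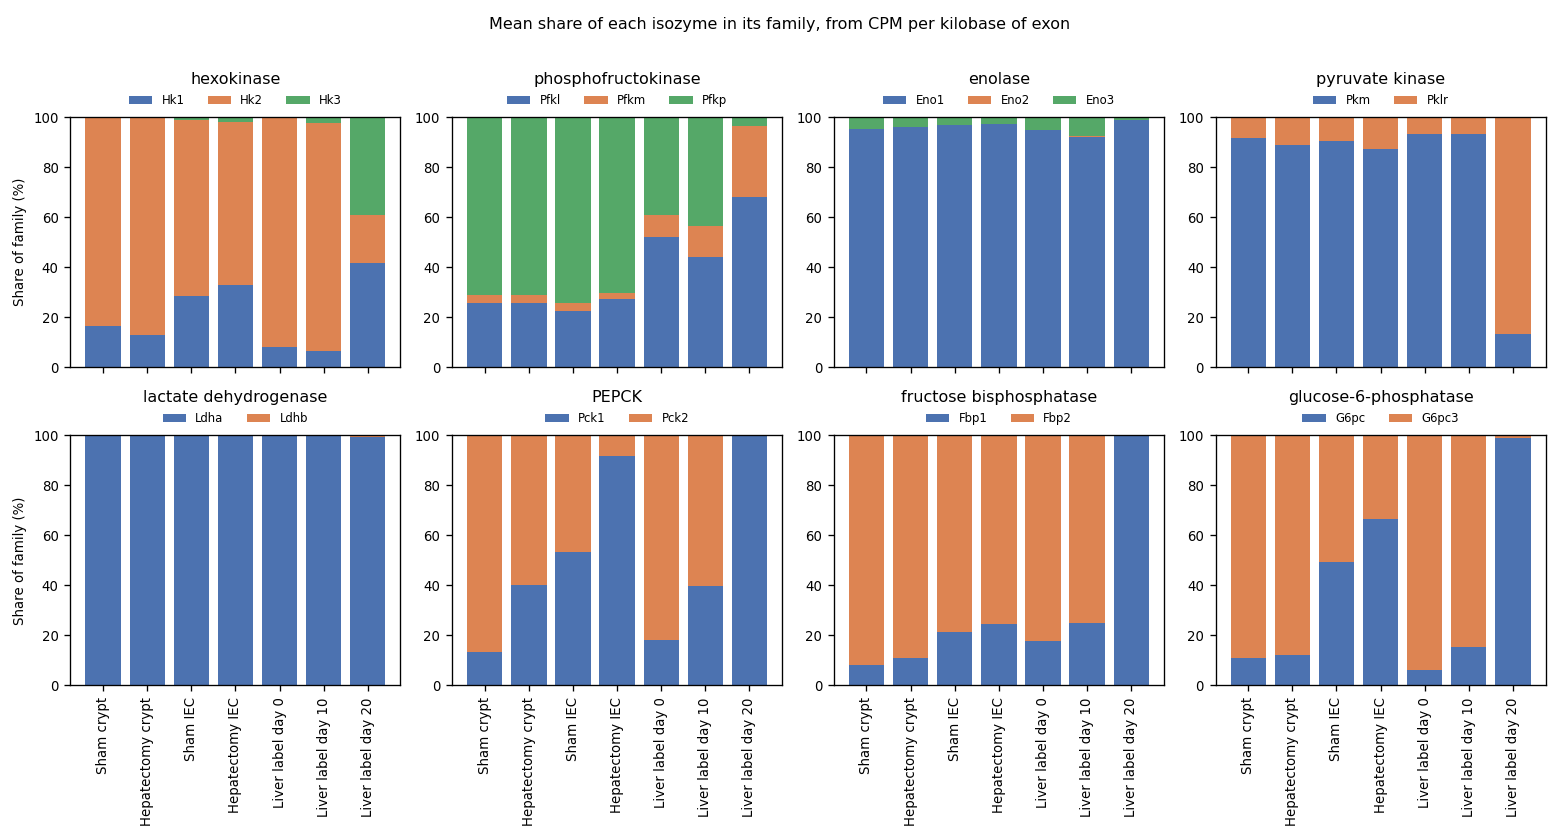
Mean share (%, y axis) of each isozyme in the summed CPM per kilobase of its family, by group (x axis), for 8 families. Pck1, G6pc, Fbp1 and Pklr fill most of their families at day 20, and Pck1 passes Pck2 in IEC, in sham IEC only with the length correction.

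Among glycolytic families, with Hkdc1 left out, Hk2 led in all groups but day 20, at 83.3% ± 2.0 of Hk1, Hk2 and Hk3 in sham crypts, 70.1% ± 1.6 in sham IEC, 65.4% ± 3.4 in IEC after hepatectomy and 19% ± 2.7 at day 20. Pfkp made up 71% ± 0.15 of phosphofructokinase in sham crypts and between 70.5% and 74.3% in the other intestinal groups, against 3.35% ± 0.64 at day 20, where Pfkl made up 68% ± 2.9. Pklr made up 8.39% ± 0.34 of pyruvate kinase in sham crypts, 11% ± 0.55 in crypts after hepatectomy, 9.47% ± 0.20 in sham IEC and 12.6% ± 0.22 in IEC after hepatectomy, so Pkm led in all 4. At day 20 Pklr made up 86.7% ± 0.59. Eno1 made up at least 92.1% of enolase and Ldha at least 99.567% of lactate dehydrogenase in each group mean. The same isozyme led in 53 of 56 pairs of family and group when no length correction was made. The exceptions were PEPCK in sham IEC (Pck2 in place of Pck1), glucose-6-phosphatase in sham IEC (G6pc in place of G6pc3) and phosphofructokinase at day 10 (Pfkp in place of Pfkl).

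The opposed steps were summarised as ratios of summed CPM per kilobase, which compare transcripts and not reaction rates. G6pc over the 3 hexokinases was 0.328 ± 0.040 (SD) in sham crypts, 0.544 ± 0.021 in crypts after hepatectomy, 2.74 ± 0.13 in sham IEC and 7.56 ± 0.80 in IEC after hepatectomy. The order of the 4 groups held in every library. It depends on the genes taken as hexokinases: with Hkdc1 added the ratio was 0.0375 ± 0.0061 in sham crypts and 0.0354 ± 0.0011 in crypts after hepatectomy, which overlapped, and 0.188 ± 0.022 in sham IEC and 0.257 ± 0.016 in IEC after hepatectomy. This ratio is given for the intestine alone. Fbp1 and Fbp2 over the 3 phosphofructokinases ran from 2.33 ± 0.057 in sham crypts through 3.08 ± 0.066 in crypts after hepatectomy and 4.17 ± 0.029 in sham IEC to 5.28 ± 0.15 in IEC after hepatectomy, and was 50.1 ± 2.1 at day 20. Pck1 and Pck2 over Pkm and Pklr did not follow this order. It was 0.0592 ± 0.00063 in sham crypts, 0.0513 ± 0.0014 in crypts after hepatectomy, 0.0516 ± 0.00073 in sham IEC, 0.157 ± 0.010 in IEC after hepatectomy and 16.1 ± 1.4 at day 20. Crypts after hepatectomy and sham IEC were close to each other in this ratio, and both lay below sham crypts.

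**Figure D5:**
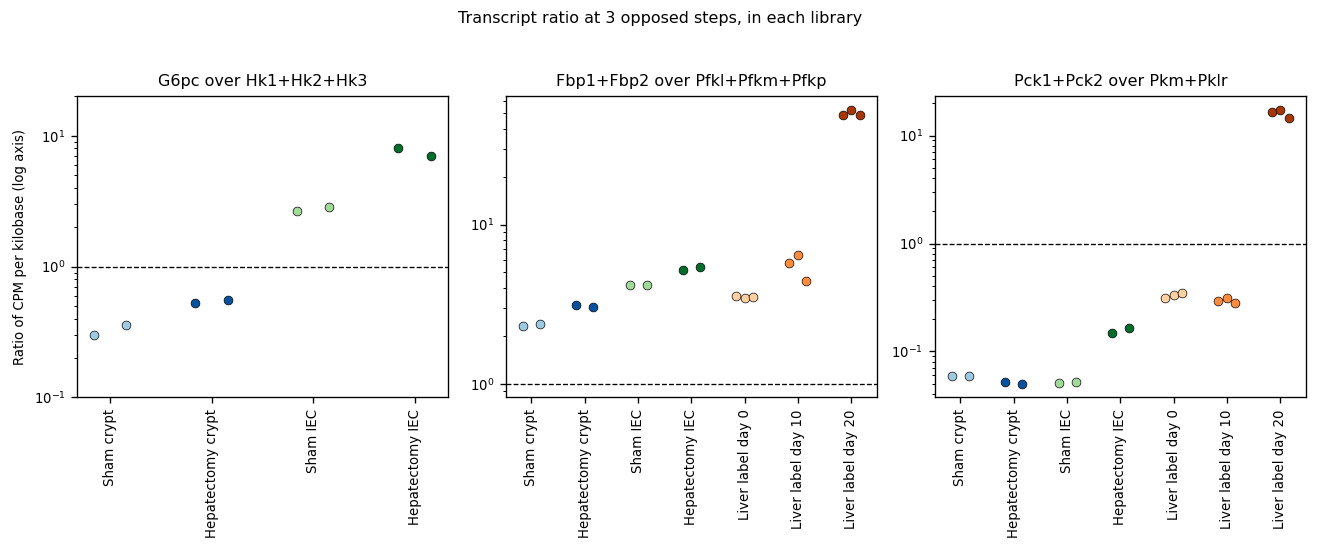
Ratio of summed CPM per kilobase (log axis, y) at 3 opposed steps in each library (points) by group (x axis, the left panel with the intestinal groups alone); the dashed line marks a ratio of 1. The left and middle ratios rise in steps over the 4 intestinal groups, and the middle and right ratios are highest at day 20.

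Other genes of the pathway, 47 written down from general knowledge, were read in the same fits. In IEC after hepatectomy 18 of 41 tested were higher and 6 lower (58.5%, against 37.8% of all genes), and in crypts 14 were higher and 7 lower (51.2%, against 37.5%). Pdk4, a starvation-induced kinase that shuts pyruvate dehydrogenase, rose most in both: it was 4.14 and 5.45 CPM in sham IEC, 31.9 and 27.8 CPM after hepatectomy, and 0.941 and 0.637 CPM and 2.35 and 3.07 CPM in crypts (2.64 ± 0.15, adjusted p = 6.0e-08 and 1.83 ± 0.24, adjusted p = 1.2e-04). Slc16a3, a lactate exporter, rose by 1.51 ± 0.087 (adjusted p = 5.5e-08) in IEC and 0.99 ± 0.099 (adjusted p = 1.2e-05) in crypts. Slc37a4, which carries glucose-6-phosphate to G6pc in the endoplasmic reticulum, rose by 0.89 ± 0.065 (adjusted p = 4.3e-07) in IEC and 0.44 ± 0.067 (adjusted p = 3.2e-04) in crypts, and the effects differed by -0.45 ± 0.093 (adjusted p = 0.0053). In IEC Pgam2 (1.33) and Slc16a7 (1.20) were also among the 4 with the largest called differences, but both were near the floor. Pgam2 was 0.336 and 0.269 CPM in sham IEC and 0.92 and 0.607 CPM after hepatectomy. Slc16a7 was 0.336 and 0.422 CPM and 0.821 and 0.929 CPM. In crypts Ppp1r3b, a glycogen-targeting phosphatase subunit, fell by 1.47 (SE 0.21, adjusted p = 2.2e-04).

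Between crypts and IEC, 6 of 41 were higher and 17 lower in sham crypts (56.1%, against 38.6% of all genes), and 8 higher and 25 lower after hepatectomy (80.5%, against 51.9%). Pdk4 (-2.63), Slc16a3 (-1.69) and Pdk2 (-1.43) were among the genes with the largest called differences in sham, and Slc37a4 differed (crypts minus IEC) by -1.31 ± 0.068 (adjusted p = 1.2e-08). At day 20 against day 0, 22 of 44 were higher and 15 lower (84.1%, against 71.4% of all genes). Ppp1r3c rose by 7.53 and Slc37a4 from 42.7, 36.5 and 33.7 CPM to 299, 297 and 309 CPM. Hkdc1 went from 46.4, 42.6 and 40.8 CPM to 1.18, 0.619 and 0.864 CPM (-5.60 ± 0.49, adjusted p = 2.5e-07), and Pdk3 fell by 6.22. In day 10 against day 0, 2 of 44 were higher and 11 lower, against 24.7% and 18.8% of all genes. The 2 were Pdk4, from 0.808, 1.17 and 1.36 CPM to 9.84, 5.46 and 6.56 CPM (2.71 ± 0.29, adjusted p = 9.9e-05), and Slc16a7 (1.25 ± 0.18, adjusted p = 8.3e-04). At day 20 Pdk4 was 7.8, 7.0 and 6.48 CPM, which overlapped day 10.

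Of 22 regulators of the pathway, 21 were tested in the intestine. In IEC after hepatectomy 8 were higher and 1 lower (42.9%, near the 37.8% of all genes), and in crypts 12 higher and 3 lower (71.4%, against 37.5%). Egln3, a hypoxia-induced oxygen sensor, rose by 1.54 ± 0.12 (adjusted p = 6.0e-07) in IEC and 1.22 ± 0.14 (adjusted p = 2.8e-05) in crypts, and Cebpb, a transcription factor of the fasting and acute phase response, by 1.14 ± 0.33 (adjusted p = 0.017) and 1.73 ± 0.22 (adjusted p = 8.4e-05). Ppargc1a, a coactivator of gluconeogenic genes, rose by 0.39 ± 0.071 (adjusted p = 8.0e-04) in IEC and 0.71 ± 0.074 (adjusted p = 1.5e-05) in crypts. Foxo1, a forkhead factor restrained by insulin, rose by 0.77 ± 0.12 (adjusted p = 3.1e-04) in crypts, and its effects differed between the preparations by 0.88 ± 0.17 (adjusted p = 0.0041). Hif1a rose by 0.84 ± 0.063 (adjusted p = 5.1e-07) in IEC, with a difference of -0.86 ± 0.087 (adjusted p = 4.8e-05) from crypts. Other regulators stood lower after hepatectomy. Hnf4a was 279.8 and 279.7 CPM in sham IEC and 228.1 and 227.7 CPM in IEC after hepatectomy. Srebf1 was 99.5 and 89 CPM in sham crypts and 72.6 and 70.8 CPM in crypts after hepatectomy, but in IEC it was higher after hepatectomy. At day 20 the glucagon receptor Gcgr was higher than at day 0 by 7.83 ± 0.41 (adjusted p = 1.8e-09), and Myc differed by -4.41 ± 0.20 (adjusted p = 4.7e-10). These regulators were named after their values were seen.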

How the data were processed

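The submitters' processing notes name STAR, Partek and the mm10 build, with no versions. The counting program and its strand setting are not given in the sources used here. Per gene symbol, the intestinal tables that the authors deposited give estimated counts, and these were rounded because 36.7% of them were not whole. The authors' liver-labelled tables are keyed by Entrez identifier and give deposited counts that are whole, and 24570 of 24594 identifiers (99.9%) were matched to RefSeq symbols. The 24 unmatched identifiers hold 3.93 to 22.1% of a library's counts. Of the 35 members, 18 overlap another annotated gene, 17 of them on the opposite strand.

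The intestinal and liver-labelled counts went into separate fits of edgeR 4.0.16 under R 4.3.3 (TMM scaling, filterByExpr at a count of 10 and a total of 15, F tests of the quasi-likelihood model), and calls were made at a Benjamini-Hochberg adjusted p under 0.05 over all genes. The SE of a log2 fold change was derived from the F statistic. CPM are TMM-normalised, and CPM per kilobase use the exons of protein-coding transcripts of the GENCODE vM21 basic annotation. The procedure was tested on simulated data. Values in every library are given for up to 12 members a comparison (called, averaging 5 CPM or more in the higher group, in order of the absolute log2 fold change) and their partners in an isozyme family or opposed step. Of other pathway genes up to 4 with the largest called differences are named, plus Slc37a4 and Pdk4, and some genes that this rule would name are not reported here. The members, gene lists and roles were chosen with earlier results of these data known. The fits were repeated with DESeq2 1.42.0 in place of edgeR, with RLE in place of TMM, with only the groups compared, with a replicate block, without each library in turn, and with calls limited to absolute log2 fold changes from 1 upward. The low-count filter was also dropped, or tightened to 1 CPM in each library of some group whose mean reached 5 CPM. Where a group keeps 1 library, it is assumed to vary like the others. Summing near-identical copies, leaving out day 10 replicate 3 in a fit of the days compared, and adding Hkdc1 to the hexokinases of the first ratio were chosen after seeing the data. Figures were drawn with matplotlib 3.10.9 in Python 3.11.15.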

Additional observations from a re-analysis of the deposited data

Results flagged for a closer look

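The effect of hepatectomy differed between crypts and IEC for 8 of the 31 tested enzyme genes, by edgeR's quasi-likelihood test of the difference itself (log2 scale, crypts minus IEC). It was smaller or more negative in crypts for Aldoc (-0.96), Pck1 (-0.88), Pfkfb3 (-0.78), G6pc (-0.51), Pfkl (-0.49), Pcx (-0.46) and Eno1 (-0.23), and the fall of Hk2 was smaller in crypts (0.38). The differences of Aldoc, Pck1, Pfkfb3 and Pfkl passed in 8 of 8 fits that leave out a library, and those of Hk2, G6pc, Pcx and Eno1 were lost in 3, 4, 5 and 5 of them. Of the 15 enterocyte markers, 8 also had a smaller effect in crypts and 3 a larger one, and their part in the enzyme differences was not tested.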

How the results depend on the processing

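No result of the members reversed its direction with a call under the alternatives run, and most counts of members called stayed within 1.5 times of those reported. Requiring a log2 fold change of at least 1 left 2 members for hepatectomy against sham in crypts, 2 in IEC, 0 for the difference of these effects, 5 for crypts against IEC in sham, 8 after hepatectomy and 7 for day 10 against day 0, since that rule drops smaller changes by construction. For that 0, edgeR called 8 and DESeq2 6 differences with no minimum size, and 13 of 31 had an unadjusted p under 0.05. The stricter filter left 7 members for day 10 against day 0. Hk3 and Ldhb did not pass that filter and 6 other members lost their call, for which the cause was not tested. Without 1 library the counts ran from 15 to 18 (hepatectomy in crypts), 19 to 26 (in IEC), 4 to 9 (difference of effects, with 4 without IEC replicate 1 after hepatectomy and 5 without crypt replicate 1 after hepatectomy or either sham IEC library), 19 to 25 (crypts against IEC, sham), 23 to 24 (after hepatectomy), 11 to 15 (day 10 against day 0), 28 to 29 (day 20 against day 0) and 24 to 30 (day 20 against day 10). The split at day 10 against day 0 was 8 higher and 7 lower as reported, 6 and 11 with no filter, and 5 and 10 without day 10 replicate 3.

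Same-numbered libraries did not deviate together from their group means (correlations from -0.030 to 0.042). With so few libraries in a group, these values cannot tell whether same-numbered libraries share mice. With the replicate number as a block, 18, 24, 8, 23, 24, 13, 28 and 25 members were called in the 8 comparisons, in the order above. Intestinal groups hold 2 libraries, and Hk3, Gckr, Ldhb and Gys2 were too shallow there for a test.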
